A study of Mus musculus with 6 samples.

Results

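Myoblast fusion and cell contact genes are described here in the C2C12 model of muscle differentiation. The group was chosen by name and holds 10 of the 54525 genes listed: the fusogens *Mymk* (myomaker) and *Mymx* (myomixer), the cadherins *Cdh15* (M-cadherin) and *Cdh2* (N-cadherin), the junctional adhesion molecules *Jam2* and *Jam3*, the adhesion receptors *Adgrb1* (BAI1) and *Adgrb3* (BAI3), and *Dock1* and *Elmo1*, which act on the GTPase Rac. Of the 10 genes, 8 passed the filter on low counts and were tested, and *Adgrb1* and *Adgrb3* had 0 counts in every library. *Mymk*, *Mymx* and *Elmo1* rose between myoblasts and myotubes, *Cdh15*, *Cdh2*, *Jam2* and *Dock1* fell, and *Jam3* did not pass the test.

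A muscle fibre forms when mononucleated myoblasts recognise one another, adhere through cadherins and other cell surface proteins, and merge their plasma membranes. Myomaker is a multi-pass membrane protein and myomixer a very small one, and both are needed for membranes to fuse fully. At the contact site, receptors of the BAI family and the Elmo and Dock proteins activate Rac, which drives the branched actin that pushes the membranes of fusing cells together.

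RNA-seq covered 6 samples, 3 of myoblasts on day 0 (D0) and 3 of myotubes on day 5 of differentiation (D5). The titles number the samples and do not say whether they were independent cultures. C2C12 is 1 established mouse myoblast line, and all 6 samples are wild type with no treatment listed. Per the methods, growth medium held fetal bovine serum and differentiation medium held a lower share of horse serum. D5 cultures may still hold unfused cells, and in bulk RNA a smaller number of cells of a type and less RNA per cell cannot be told apart.

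The libraries held 36555048 to 40895840 counts on genes at D0 and 25449759 to 25811300 at D5. Levels are given as CPM (counts per 1000000 counts, scaled with edgeR's TMM factors), as mean ± SD over 3 libraries. Differences between D5 and D0 were tested with the quasi-likelihood test of edgeR, and p-values were adjusted by Benjamini and Hochberg's method over all genes tested. The labels were checked against marker genes. *Myog*, a transcription factor of terminal muscle differentiation, rose from 2.76 ± 0.367 to 515 ± 3.25 CPM, and *Myh3*, embryonic myosin heavy chain, from 1.70 ± 0.361 to 4702 ± 174 CPM. *Ckm*, muscle creatine kinase, rose from 2.09 ± 0.507 to 653 ± 22.4 CPM. The 8 myogenic markers summed to 2327 to 2422 CPM in the D0 libraries and to 12494 to 13134 CPM in the D5 libraries. Of these markers 5 were higher and 3 lower at D5, so the sum joins opposite changes. *Myod1* fell from 207 ± 6.24 to 126 ± 3.95 CPM, *Myf5* from 123 ± 3.02 to 24.6 ± 0.583 CPM and *Pax7* from 18.0 ± 0.392 to 5.49 ± 0.655 CPM. All 6 markers of cycling cells were lower at D5, and their sum moved from 1824 to 1835 CPM at D0 to 102 to 111 CPM at D5. *Mki67* fell from 704 ± 9.93 to 20.4 ± 2.01 CPM and *Ccnb1* from 135 ± 1.01 to 4.16 ± 0.745 CPM. Of 11 markers of other cell types, 8 were too low to test and 3 were lower at D5, with a sum of 223 to 232 CPM at D0 and 6.59 to 7.47 CPM at D5. *Tubb3*, a neuronal tubulin, made up most of that sum and fell from 220 ± 4.84 to 4.22 ± 0.214 CPM. The other neural marker, *Sox10*, had 0, 0 and 1 counts at D0 and 0 in each D5 library. *Kdr*, an endothelial receptor, fell from 2.50 ± 0.274 to 0.215 ± 0.0251 CPM. The other endothelial marker, *Pecam1*, had 4, 7 and 6 counts at D0 and 3, 1 and 2 at D5. *Ptprc*, *Epcam* and *Adipoq*, defining markers of leukocytes, epithelium and fat, were at 0 in all 3 D0 libraries and at most 1 D5 library held counts of each. The other listed markers of these types did hold counts at D0. *Cd68*, of leukocytes, was also tested and fell from 3.15 ± 0.138 to 2.22 ± 0.356 CPM. *Krt8*, of epithelium, had 1, 3 and 0 counts at D0, and *Plin1*, of fat, had 0, 1 and 1. The part of cycling or other cells in the results that follow was not tested.

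The shortest protein of the group is encoded by *Mymx* on chromosome 17, minus strand (GRCm38, gene from 45600971 to 45602102). Its coding sequence is shown because it is so short. In 3 of the 4 annotated transcripts it lies in 1 exon and codes for 84 amino acids, and in the other, Mymx-202, it spans 2 exons with 327 bases for 108 amino acids. The sequence was read from the GENCODE transcript Mymx-203 at chr17:45601417-45601671, 5′ to 3′ on the coding strand, with the start and stop codons in capitals.

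Mymx coding sequence: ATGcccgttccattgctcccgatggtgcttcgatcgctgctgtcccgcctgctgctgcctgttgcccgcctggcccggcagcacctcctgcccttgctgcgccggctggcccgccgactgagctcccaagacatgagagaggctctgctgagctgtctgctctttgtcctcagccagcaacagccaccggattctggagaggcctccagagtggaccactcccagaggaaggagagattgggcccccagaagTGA

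The 255 bases include the stop codon. *Mymk*, by comparison, has a coding sequence of 666 bases for 221 amino acids in its longest transcript, spread over 5 coding exons.

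RefSeq promoter windows (GRCm38.p6, 250 bases before to 50 after the start site) were given for 4 of the 10 genes: *Cdh15*, *Dock1*, *Elmo1* and *Adgrb3*. The windows of *Cdh15* and *Elmo1* are shown, 1 gene that fell and 1 that rose, with the letters of the E-box, the motif bound by MyoD and its relatives, in capitals. The E-box was searched as CANNTG, which reads the same on both strands.

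Cdh15 promoter, chr8:122848124-122848423, plus strand: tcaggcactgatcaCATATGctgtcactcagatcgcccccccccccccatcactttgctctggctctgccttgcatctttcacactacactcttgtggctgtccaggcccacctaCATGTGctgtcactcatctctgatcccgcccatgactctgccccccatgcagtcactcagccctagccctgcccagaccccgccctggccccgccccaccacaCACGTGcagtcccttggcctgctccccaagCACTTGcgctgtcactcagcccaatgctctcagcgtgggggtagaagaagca

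Elmo1 promoter, chr13:20090257-20090556, plus strand: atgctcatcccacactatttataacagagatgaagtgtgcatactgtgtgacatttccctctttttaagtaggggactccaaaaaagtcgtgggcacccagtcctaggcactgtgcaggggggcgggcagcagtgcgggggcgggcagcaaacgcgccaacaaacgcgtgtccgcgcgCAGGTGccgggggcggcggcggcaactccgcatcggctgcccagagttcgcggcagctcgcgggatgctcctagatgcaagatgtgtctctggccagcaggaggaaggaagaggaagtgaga

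The *Cdh15* window held 4 matches, and the *Elmo1* window held 1, of the form CAGGTG. By the GENCODE positions used for the genes, *Cdh15* starts at 122847966, so its window lies within the annotated gene and not upstream of it. *Elmo1* has a second window further into the gene, at chr13:20472740-20473039, with 0 matches. The *Dock1* window held 1 match and that of *Adgrb3*, which had no counts, held 2. Among 32851 such windows 72.3% held CANNTG, with a median of 1 match. The more specific form CACCTG, or CAGGTG on the other strand, was in 20.2% of windows, and CAGCTG in 16.3%. No match in the *Cdh15* window had either form. A match is a description of these letters and not a measured binding site.

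Of the 8 tested genes, 7 passed the test, 3 of them higher and 4 lower at D5. The background was high, since 82.9% of the 16290 genes tested passed it, 42.2% higher and 40.8% lower. The D0 and D5 libraries did not overlap in 7 of the 8 genes, against 83.3% of all genes tested. The median log2 fold change of the 8 genes was -0.038, and that of all genes tested was 0.0022. The counts of calls therefore sit close to the background, and the sizes of the changes are given gene by gene.

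**Figure D1:**
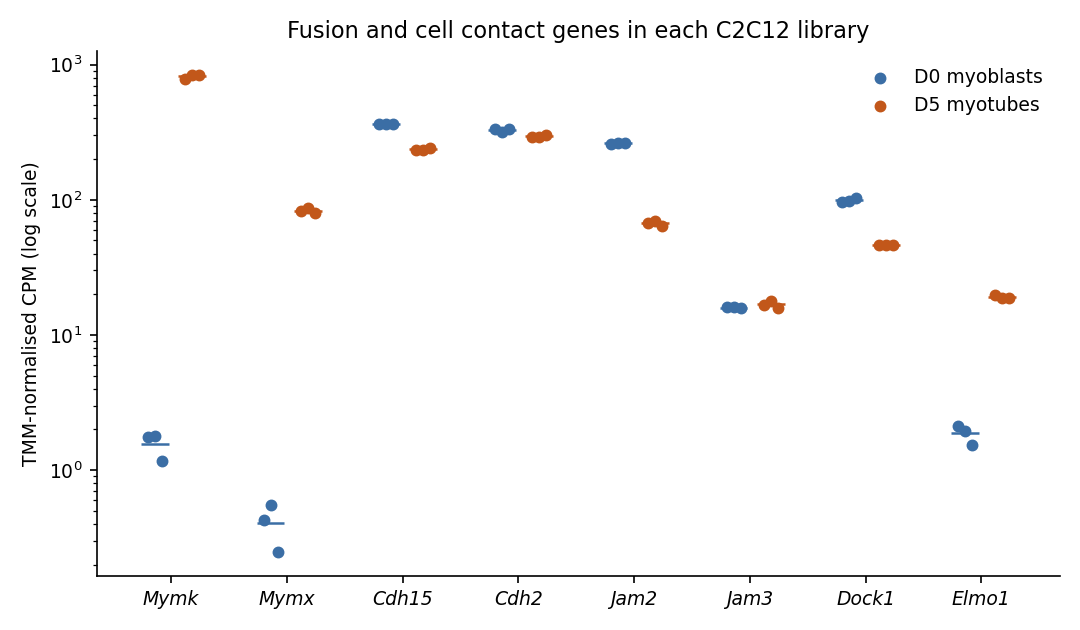
TMM-normalised CPM on a log scale (vertical) of the 8 genes with counts, with 1 point per library and a line at the group mean, for D0 myoblasts (blue) and D5 myotubes (orange). *Mymk* goes from 1.57 to 818 CPM and *Mymx* from 0.408 to 83.2 CPM, whereas the points of *Jam3* overlap between groups.

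*Mymk* (chromosome 2, 27061636 to 27072179, minus strand) encodes the membrane protein that makes myoblasts competent to fuse. The myoblast libraries held 66, 75 and 47 of its counts and the myotube libraries 19525, 20801 and 20747. In CPM these were 1.76, 1.78 and 1.17 at D0 and 777, 844 and 834 at D5. The groups were far apart, and the lowest library of all was D0 replicate 3. The mean rose from 1.57 ± 0.350 to 818 ± 36.0 CPM, a 520-fold change (log2 fold change 9.02, SE 0.067, adjusted p = 7.64e-39). It ranked 82 by rise among the 11887 genes whose mean reached 100 counts at D0 or at D5.

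*Mymx* encodes the micropeptide that acts after myomaker to open the fusion pore. Its counts were 16, 23 and 10 at D0 and 2065, 2149 and 1998 at D5. The D0 libraries held 0.427, 0.547 and 0.248 CPM and those of D5 held 82.2, 87.2 and 80.3 CPM. As for *Mymk*, D0 replicate 3 was lowest and no D0 library came near a D5 library. The mean rose from 0.408 ± 0.150 to 83.2 ± 3.56 CPM, 202-fold (log2 fold change 7.66, SE 0.095, adjusted p = 1.99e-33). By rise it ranked 153.

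Because *Mymk* and *Mymx* are needed together, their ratio was compared within each library, where the scaling between libraries plays no part. The log2 ratio of *Mymx* to *Mymk* counts was -2.01, -1.68 and -2.18 at D0 and -3.24, -3.27 and -3.38 at D5. The D5 ratio was lower in 3 of 3 libraries, by a difference of -1.34 (SE 0.15). Per exonic length, *Mymx* stood at 0.383 ± 0.0681 of the level of *Mymk* at D0 and at 0.150 ± 0.00722 at D5. The exact permutation test gave p = 0.1, two-sided, the smallest p that 3 libraries against 3 allow. The D0 ratio rests on 10 to 23 *Mymx* counts per library.

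The cadherins fell, by much less than the fusogens rose. *Cdh15* (chromosome 8, 122847966 to 122867397, plus strand), the cadherin typical of muscle precursors, had 362, 364 and 362 CPM at D0 and 235, 233 and 243 CPM at D5. The 3 myoblast libraries lay within a few CPM of each other and well above the myotube libraries. The D5 mean was 65.3% of the D0 level, 237 ± 5.02 against 363 ± 1.24 CPM (log2 fold change -0.62, SE 0.032, adjusted p = 2.34e-17).

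*Cdh2* (chromosome 18, 16588877 to 16809246, minus strand), a cadherin shared with neurons and heart muscle, had 332, 318 and 332 CPM at D0 and 290, 292 and 300 CPM at D5. The groups did not overlap, but the gap between the nearest libraries was small. The mean went from 327 ± 7.85 to 294 ± 5.07 CPM, 89.8% of the D0 level (log2 fold change -0.15, SE 0.032, adjusted p = 6.68e-05). With counts scaled to the ERCC spike-ins instead, which moved the median of all genes to -0.58, the log2 fold changes were -1.19 for *Cdh15* and -0.73 for *Cdh2*, and neither passed edgeR's quasi-likelihood test (adjusted p = 0.0611 and 0.276).

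Within libraries the balance between the cadherins shifted. The log2 ratio of *Cdh15* to *Cdh2* counts was 0.15 ± 0.040 at D0 and -0.31 ± 0.014 at D5, a difference of -0.46 (SE 0.024) with no overlap between groups (exact permutation test, two-sided, p = 0.1). Per exonic length *Cdh15* remained the higher of the pair, at 2.75 ± 0.0764 times *Cdh2* at D0 and 2.00 ± 0.0192 times at D5. The size of this ratio depends on the length taken for each gene, which the SD does not include.

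*Jam2* and *Jam3* encode partners that bind each other across a cell contact, and their transcripts moved apart. *Jam2* (chromosome 16, 84774123 to 84825928, plus strand) had 260, 261 and 263 CPM at D0 and 67.2, 69.2 and 64.3 CPM at D5. Every myotube library was far below every myoblast library. The mean fell from 262 ± 1.48 to 66.9 ± 2.49 CPM, to 25.6% of the D0 level (log2 fold change -1.97, SE 0.036, adjusted p = 3.58e-29), which ranked 706 by fall.

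*Jam3* (chromosome 9, 27097384 to 27155421, minus strand) had 16.1, 16.0 and 15.7 CPM at D0 and 16.8, 17.9 and 15.9 CPM at D5. D5 replicate 3 lay among the D0 libraries, so the groups overlapped. The log2 fold change was 0.078 with a 95% interval from -0.048 to 0.20 (adjusted p = 0.238 in edgeR's quasi-likelihood test), and its sign turned under scaling to library totals, at -0.0064, and to the spike-ins, at -0.46. Over 36.2% of its exonic length *Jam3* lies opposite the gene *Gm48796*, which had 62 to 81 counts at D0 and 5 to 6 at D5, and without a known strand setting their reads cannot be told apart.

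The log2 ratio of *Jam2* to *Jam3* counts was 4.04 ± 0.026 at D0 and 1.99 ± 0.032 at D5. The difference of -2.05 (SE 0.024) was many times the spread within a group (exact permutation test, two-sided, p = 0.1). Per exonic length *Jam2* exceeded *Jam3* 8.68-fold (SD 0.157) in myoblasts and 2.10-fold (SD 0.0471) in myotubes.

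*Adgrb1* (chromosome 15, 74516195 to 74589465, plus strand) and *Adgrb3* (chromosome 1, 25067476 to 25829707, minus strand) encode adhesion receptors that bind Elmo proteins inside the cell. Both had 0 counts in all 6 libraries, at D0 and at D5. A count of 0 allows up to 3 counts, or 0.0714 to 0.0801 CPM in a D0 library and 0.119 to 0.122 CPM in a D5 library, counting error only. Their ratio could not be formed. The relative *Adgrb2* had 1, 5 and 2 counts at D0 and 1, 1 and 0 at D5, so the whole receptor family was at or near the limit of detection at this depth. Among the *C1ql* genes, whose secreted products include ligands of BAI3, *C1ql1* had 0, 1 and 0 counts at D0 and 6, 4 and 5 at D5. *C1ql4* had 6, 3 and 3 counts at D0 and 2, 1 and 2 at D5, *C1ql3* had 5 counts in each D0 library and 3 to 7 at D5, and *C1ql2* had none. *Adgrb2* and these genes were too low to be tested.

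*Dock1* and *Elmo1* encode the components of a complex that activates Rac, *Dock1* the exchange factor and *Elmo1* its regulatory partner. *Dock1* (chromosome 7, 134670654 to 135173639, plus strand) had 95.7, 97.5 and 104 CPM at D0 and 46.7, 46.4 and 46.1 CPM at D5. The D5 libraries were nearly equal and all lower. The mean moved from 99.0 ± 4.19 to 46.4 ± 0.301 CPM, to 46.9% of the D0 level (log2 fold change -1.09, SE 0.040, adjusted p = 4.40e-21).

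*Elmo1* (chromosome 13, 20090596 to 20608353, plus strand) had 80, 82 and 62 counts at D0 and 499, 464 and 466 at D5. These were 2.14, 1.95 and 1.54 CPM in myoblasts and 19.9, 18.8 and 18.7 CPM in myotubes, again with D0 replicate 3 lowest. The mean rose 10.2-fold, from 1.88 ± 0.305 to 19.1 ± 0.630 CPM (log2 fold change 3.35, SE 0.098, adjusted p = 8.76e-24), and ranked 562 by rise.

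The closest relatives did not follow. *Elmo2* moved from 54.3 ± 0.286 to 40.1 ± 0.687 CPM (log2 fold change -0.44, SE 0.042), and *Dock5* from 62.5 ± 2.70 to 78.3 ± 0.717 CPM (0.32, SE 0.039), and both passed edgeR's test. The log2 ratio of *Elmo1* to *Elmo2* counts went from -4.86 ± 0.25 at D0 to -1.07 ± 0.022 at D5, a difference of 3.79 (SE 0.14). *Elmo2* thus stayed the more abundant Elmo transcript, and per exonic length *Elmo1* reached 0.0184 ± 0.00306 of its level at D0 and 0.253 ± 0.00394 at D5. For *Dock1* against *Dock5* the log2 ratio went from 0.66 ± 0.026 to -0.75 ± 0.015 and changed sign, with a difference of -1.42 (SE 0.017). *Dock1* was 2.07 ± 0.0368 times *Dock5* per exonic length in myoblasts and 0.773 ± 0.00801 times in myotubes.

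The ratio between the partners themselves moved most of the 6 pairs compared. The log2 ratio of *Elmo1* to *Dock1* counts was -5.48, -5.64 and -6.06 at D0 and -1.23, -1.30 and -1.30 at D5, a difference of 4.45 (SE 0.18). Per exonic length *Elmo1* stood at 0.0142 ± 0.00284 of *Dock1* at D0 and at 0.306 ± 0.00842 at D5. In all 6 pairs the groups did not overlap, and in each the exact permutation test gave its smallest possible two-sided p of 0.1, also after adjustment over the 6 pairs, so no pair could pass 0.05 in this design.

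**Figure D2:**
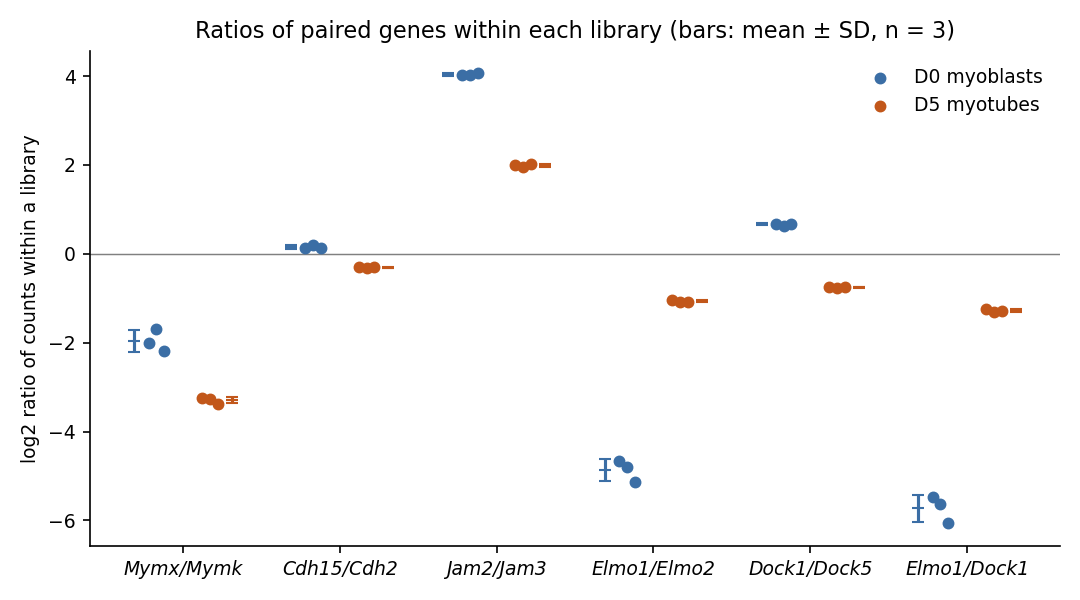
Log2 ratio of the counts of 2 genes in the same library (vertical), with 1 point per library and bars for mean ± SD of 3 libraries, for D0 (blue) and D5 (orange). *Dock1*/*Dock5* and *Cdh15*/*Cdh2* cross the line at 0, where counts are equal, and the *Elmo1*/*Dock1* ratio moves from -5.72 to -1.28.

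Levels were also set in order per exonic length, as TPM (counts per exonic length, scaled to sum to 1000000 in each library). At D0 the order was *Cdh15* at 386 ± 6.36 TPM, *Jam2* at 150 ± 3.13, *Cdh2* at 140 ± 3.67, *Dock1* at 36.7 ± 2.08, *Jam3* at 17.2 ± 0.124, *Mymk* at 3.59 ± 0.766, *Mymx* at 1.37 ± 0.501 and *Elmo1* at 0.515 ± 0.0767 TPM. In myoblasts both cadherins and both junctional adhesion molecules therefore stood above both fusogens. At D5 *Mymk* led with 1679 ± 41.1 TPM, rank 46 of the 26243 genes with counts, followed by *Mymx* at 251 ± 9.27 and *Cdh15* at 226 ± 6.38 TPM. *Cdh2* had 113 ± 2.14, *Jam2* 34.3 ± 1.34, *Jam3* 16.3 ± 0.903, *Dock1* 15.4 ± 0.383 and *Elmo1* 4.72 ± 0.249 TPM. *Jam3* and *Dock1* overlapped between D5 libraries and could not be ordered. With the length of the longest coding transcript in place of all exons, *Cdh2* (234 TPM) and *Jam2* (207 TPM) changed places at D0 and no other neighbours did. *Cdh15* then stood at 386 TPM against 234 for *Cdh2* at D0, and at 226 against 188 at D5. *Elmo1* stood at 10.9 TPM against 21.1 for *Dock1* at D5. The sizes of the ratios per exonic length therefore depend on the length chosen, which their SDs do not include.

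**Figure D3:**
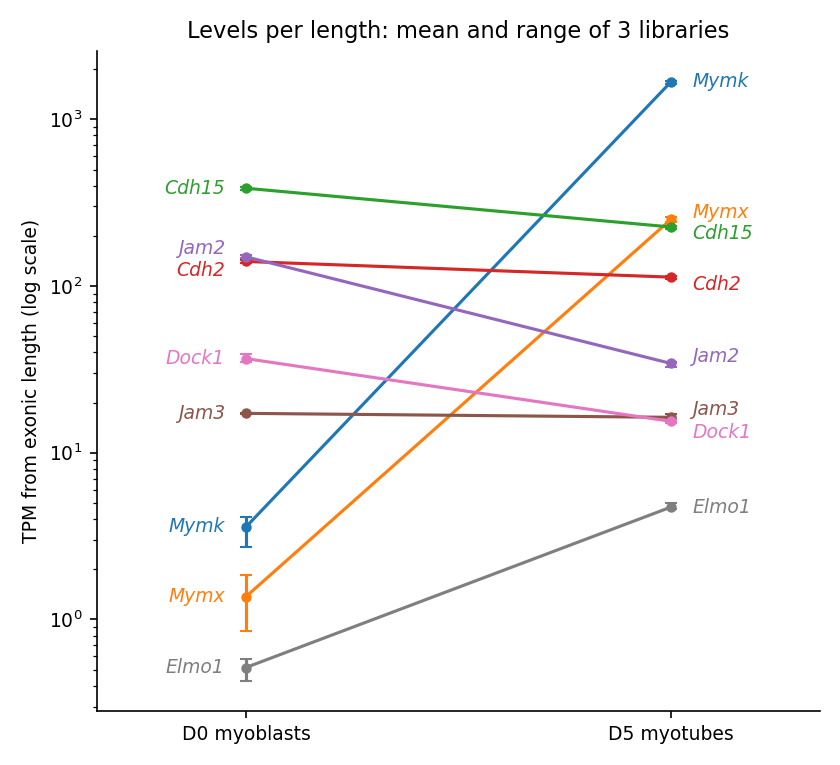
TPM from exonic length on a log scale (vertical) at D0 and D5, with points at the mean and bars from the lowest to the highest of 3 libraries. *Mymk* and *Mymx* go from places 6 and 7 of 8 at D0 to places 1 and 2 at D5.

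For each gene that passed the test, the 3 genes whose log2 CPM pattern over the 6 libraries lay nearest were found among 11879 candidates, by Euclidean distance after centring each gene. With 6 libraries in 2 groups this mostly matches the size of the change, and it is a description. Nearest to *Mymk* were *Mylpf*, a fast-fibre myosin light chain (distance 0.379), *Myom3*, a protein of the sarcomeric M-band (0.385), and *Atp2a1*, the calcium pump of fast muscle (0.405). *Mymx* lay nearest to *Abca9* (0.566), which had 1, 1 and 0 counts at D0 and 139 to 170 at D5, then to *Myog* (0.568) and to *Card14* (0.588). Nearest to *Elmo1* were *Etv1*, an ETS transcription factor (0.163), *C1rl* (0.167) and *Anpep*, the surface aminopeptidase N (0.186).

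The genes that fell had much closer neighbours. They held at least 1144 counts in every library, whereas *Mymk*, *Mymx* and *Elmo1* rest on 10 to 82 counts per D0 library. How far counts set the distances was not tested. *Cdh15* lay nearest to the Mediator subunit *Med23* (0.0282), the corepressor *Sin3a* (0.0326) and *Zmat3* (0.0333). *Cdh2* was matched by *Ubap2* (0.0173), *Stradb* (0.0332) and *Chp1* (0.0333). For *Jam2* the nearest were *Ube2s*, a ubiquitin-conjugating enzyme of mitosis (0.0625), *Cdk4*, a kinase of the cell cycle (0.0641), and *Rfwd3* (0.0655), and for *Dock1* they were *Larp7* (0.0631), *Gm45902* (0.0720) and *Abhd2* (0.0742).

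Other genes of these pathways were read from 7 lists with 96 genes, of which 76 were tested. In edgeR's test 32 were higher, 37 lower and 7 without a call at D5, with a median log2 fold change of -0.0030. Over all genes tested 42.2% were higher and 40.8% lower, with a median of 0.0022. The lists hold 5 to 15 tested genes each and are described by their counts. Neither a list nor a difference between lists was tested.

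Among 12 other classical and related cadherins, 5 were tested, 3 higher and 2 lower (median 2.95), and *Cdh4*, *Cdh8*, *Cdh20* and *Cdh22* had no counts. *Cdh13*, T-cadherin, which is held in the membrane by a lipid anchor, rose from 14.7 ± 1.01 to 165 ± 6.73 CPM (log2 fold change 3.48, SE 0.047), and *Cdh11* from 0.624 ± 0.164 to 4.81 ± 0.234 CPM (2.95, SE 0.18). Of 9 catenins and linkers to actin, 7 were tested, 4 higher, 2 lower and 1 without a call (median 0.14). *Jup*, plakoglobin, rose from 74.2 ± 2.66 to 240 ± 7.85 CPM (1.69, SE 0.036), whereas *Vcl*, vinculin, fell from 1285 ± 17.1 to 586 ± 8.44 CPM (-1.13, SE 0.032).

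The relatives of the junctional adhesion molecules and their scaffolds were divided evenly, with 4 higher, 4 lower and 1 without a call of 9 tested (median 0.15). *Nectin1*, an adhesion molecule, fell from 106 ± 1.55 to 21.4 ± 0.929 CPM (log2 fold change -2.31, SE 0.044). In the list of BAI relatives and phosphatidylserine handling, 11 of 17 were tested, 6 higher and 5 lower (median 0.18). *Gas6*, which bridges phosphatidylserine to receptors of the Axl family, rose from 0.905 ± 0.212 to 68.6 ± 3.29 CPM (6.23, SE 0.085). *Cd36*, a scavenger receptor, had 0, 3 and 2 counts at D0 and 1171, 1146 and 1111 at D5.

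The list of Dock and Elmo relatives and the Rac pathway had 15 of 17 genes tested, 3 higher, 10 lower and 2 without a call (median -0.37). *Bcar1*, an adaptor upstream of *Dock1*, fell from 162 ± 2.80 to 80.1 ± 3.68 CPM (log2 fold change -1.02, SE 0.037), and *Rac1* from 271 ± 2.58 to 171 ± 7.32 CPM (-0.67, SE 0.034). For branched actin, 15 of 16 were tested, 2 higher, 10 lower and 3 without a call (median -0.21). *Cyfip2*, a subunit of the WAVE complex, rose from 0.311 ± 0.0793 to 9.79 ± 0.501 CPM (4.97, SE 0.17) and *Wipf1*, a partner of the WASP proteins, fell from 131 ± 3.93 to 29.3 ± 0.340 CPM (-2.16, SE 0.041). *Cyfip1*, the relative of *Cyfip2*, fell from 121 ± 4.14 to 84.7 ± 1.88 CPM.

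Other adhesion and fusion receptors held 14 tested genes of 15, 10 higher and 4 lower (median 0.71). *Vcam1* rose from 3.36 ± 0.183 to 155 ± 12.5 CPM (log2 fold change 5.52, SE 0.066). *Itga4*, which encodes a chain of its integrin receptor, also rose, to 44.0 ± 3.49 CPM (3.14, SE 0.068). *Cav3*, muscle caveolin, had 0, 1 and 0 counts at D0 and 615, 668 and 633 at D5. With scaling to the spike-ins 13 of the 76 tested genes of the 7 lists were called higher and 19 lower. Over all 16290 genes tested, that scaling called 1813 higher and 3747 lower.

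**Figure D4:**
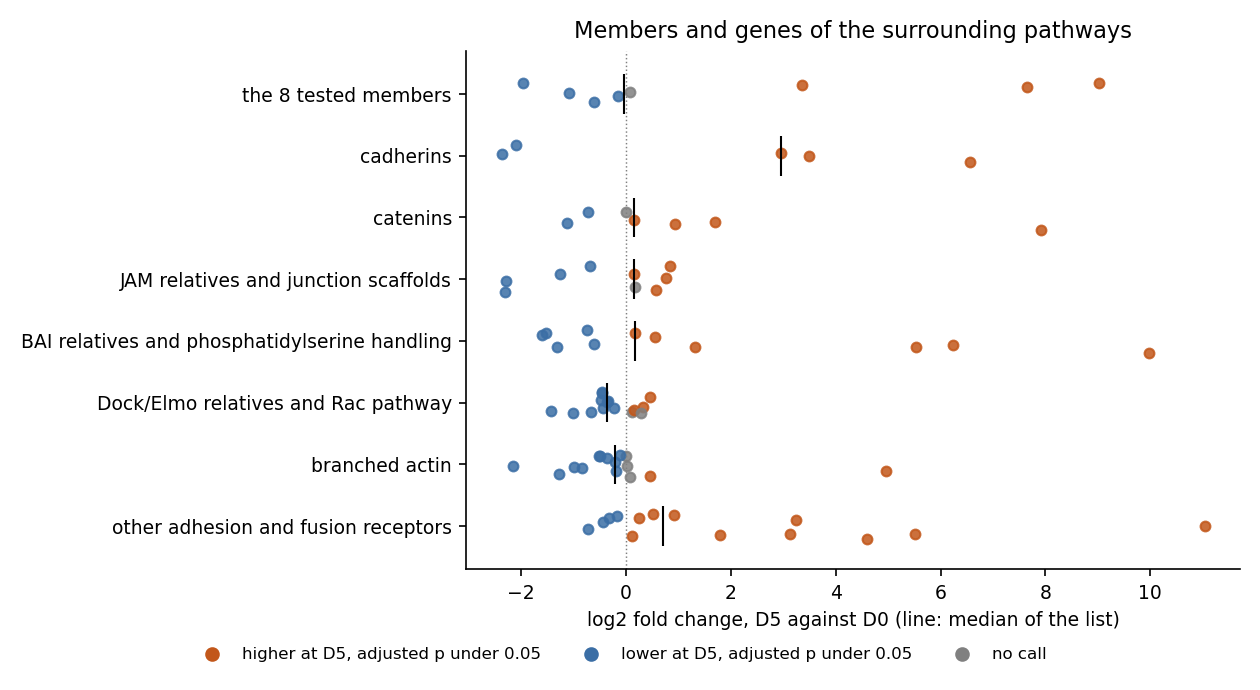
Log2 fold change from D0 to D5 (horizontal) of each tested gene among the 8 genes of the group and in the 7 pathway lists (rows), with a line at each median, coloured by the call of edgeR's test. Of the 8 genes, 3 lie to the right and 4 to the left past the threshold. The points farthest right in the lists, such as *Cav3* and *Cd36*, rest on 0 to 3 counts per D0 library and are fitted values.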

How the data were processed

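RNA-seq was deposited for 3 D0 and 3 D5 samples. The authors deposited raw counts per gene of GRCm38, made with featureCounts. The labels name Tophat2 and the study's methods name HISAT2 as the aligner. The strand setting and the handling of reads with several matches are not given in the sources used here. The submitters' processing notes also name DESeq2 1.6.3.

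The 92 ERCC spike-in entries, 0.720% to 2.09% of each library, and 1 entry without a name that equalled the column total were left out. Of 54525 genes, 54488 matched the GENCODE annotation of GRCm38 for positions and exonic length.

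Counts were filtered with filterByExpr, scaled by TMM and tested with edgeR 4.0.16 (quasi-likelihood test) in R 4.3.3, with p-values adjusted over 16290 genes and a threshold of 0.05. CPM used these factors and TPM the union of all exons. Pair ratios were compared per library with exact permutation tests (scipy 1.17.1). A limit of 3 counts was used in every library, and the depth sets its value in CPM. Replicates differed beyond sampling noise (chi-square per degree of freedom 2.28 to 3.71). Samples were grouped by their titles. The edgeR fit was tested on simulated counts, in which a far smaller share of genes changed than was called here.

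The genes and lists were chosen with earlier results of these data known. Named genes were all 10 genes, in each list the 2 with the largest absolute log2 fold change among called genes whose mean reached 100 counts in either group, the pair partners, and the 3 nearest patterns. The result of 1 gene that this rule names is not reported here. *Itga4*, *Cyfip1*, *Adgrb2*, the *C1ql* genes and the genes listed at 0 were named after their values were seen. Among the markers, so were *Myod1*, *Myf5*, *Pax7*, *Sox10*, *Pecam1*, *Ptprc*, *Cd68*, *Epcam*, *Krt8*, *Adipoq* and *Plin1*. Alternatives were DESeq2 1.42.0, upper-quartile factors, library totals, spike-in scaling, no filter, at least 10 counts in every library, a replicate block and leaving out each library.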

Additional observations from a re-analysis of the deposited data

How the results depend on the processing

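Of 104 alternative log2 fold changes of the 8 tested genes, 100 kept their direction and side of the threshold, and 42 of 42 alternative values of the pair ratios kept their direction. Leaving out each library in turn changed no call among the 8 genes, with 13236 to 13599 genes called over all. Scaling to the spike-ins, whose share differed between D5 libraries from 0.720% to 2.09%, moved the median of all genes to -0.58. It left 5560 of 16290 genes called, 1813 higher and 3747 lower. Of the calls 67.4% were lower, against 49.2% with TMM. Under spike-in scaling 2 of the 8 genes were called lower at D5. *Cdh15* (-1.19, adjusted p = 0.0611) and *Cdh2* (-0.73, adjusted p = 0.276) lost their calls in edgeR's test, and the lists held 13 genes higher and 19 lower. *Jam3*, without a call, turned to -0.0064 with library totals and to -0.46 with the spike-ins. The cause was not tested. The list counts under these alternatives and the levels from the longest transcript were chosen after seeing the data.

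Replicate numbers are shared between groups, but same-numbered libraries correlated at only 0.025 to 0.087, so no pairing was assumed. Libraries with different numbers correlated at -0.070 to 0.025. Each of the 6 libraries correlated best with its own number, which is a weak hint from the data. For D5 replicate 1 the correlations were almost tied, at 0.0248 with D0 replicate 1 and 0.0246 with D0 replicate 3. With the replicate number as a block, 13558 genes were called and no call among the 8 genes changed. At D0 *Mymx* rests on 10 to 23 counts per library, *Mymk* on 47 to 75 and *Elmo1* on 62 to 82, which limits the precision of their folds.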

Other observations

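Genes that lie within the spans of the 10 genes or within 100000 bases of them were also read (GRCm38), a set chosen after values had been seen. Around *Mymk*, 6 of 10 annotated neighbours were tested, of which edgeR's test called 5 higher and 0 lower at D5, where 42.2% of all genes tested were higher and 40.8% lower. Around *Mymx* 8 were tested, 5 higher, 2 lower and 1 without a call. *Jam3*, itself without a call, had 1 neighbour higher and 5 lower of 6 tested, and *Jam2*, which fell, had 3 higher and 2 lower of 5. Around *Cdh15*, 4 were tested and 1 was lower, *Ankrd11* at -0.44, with 3 without a call. *Elmo1* had 3 tested and all higher, *Dock1* 1 tested and lower, *Adgrb1* 1 tested without a call, and *Cdh2* and *Adgrb3* had 0 tested. Near *Mymk*, *Adamtsl2*, which encodes a secreted protein of the extracellular matrix, starts 7200 bases away on the other strand and had 3, 5 and 5 counts at D0 and 604, 716 and 606 at D5. *Slc2a6*, which encodes a member of the glucose transporter family and lies 33638 bases away on the strand of *Mymk*, rose from 0.623 ± 0.0803 to 105 ± 4.33 CPM (log2 fold change 7.38, SE 0.079). Between it and *Mymk*, *Gm13398* had 1, 0 and 1 counts at D0 and 473, 371 and 392 at D5. Farther out, *Cacfd1* moved from 30.9 ± 0.606 to 37.8 ± 1.88 CPM (0.29, SE 0.048), *Dbh* had 3 to 5 counts at D0 and 9 to 15 at D5, and *Rexo4* was without a call at 33.9 ± 0.576 and 35.4 ± 0.518 CPM.

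*Slc29a1*, a nucleoside transporter gene that starts 1365 bases downstream of *Mymx* on the same strand, rose from 95.4 ± 3.78 to 338 ± 7.32 CPM (log2 fold change 1.82, SE 0.035). The neighbours of *Mymx* that were lower were *Hsp90ab1*, at -0.24, and *Tmem63b*, at -0.22. Within the span of *Elmo1* and on its strand, *Gm47665*, *Gm47664* and *Gm47657* had 0 to 3 counts per D0 library and 10 to 27 per D5 library. The 1 tested neighbour of *Dock1*, *Gm45532*, likewise lies within its span and on its strand. It had 98, 105 and 140 counts at D0 and 21, 26 and 26 at D5. So does *Gm25908*, a lower neighbour of *Jam2*, with 24, 25 and 20 counts at D0 and 0, 1 and 1 at D5. Whether these are reads of *Elmo1*, *Dock1* and *Jam2* introns was not tested. *Gm48796*, a lower neighbour of *Jam3*, is the gene opposite its exons.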
